A study of Caenorhabditis elegans with 2 samples.

Results

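The genes ftt-2 and par-5 are the worm's genes for 14-3-3 proteins, and their peaks were read from a binding map of M03D4.4, a predicted zinc finger protein of Caenorhabditis elegans. They are 2 of 19973 nuclear protein-coding genes and were taken by name. The gene ftt-2 was picked from these same lists for its strong and wide peak, so its signal and width are given as a description and carry no test. The gene par-5 is its paralog. All peaks were taken whose summit lay from 2000 bp upstream of the 5' end to the 3' end of the gene.

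The map comes from ChIP-seq, in which DNA bound by the tagged protein is pulled down with an antibody, here against GFP, and sequenced. Strain OP696, of genotype unc-119(tm4063) III; wgIs696, carries a transgene of M03D4.4 with GFP and FLAG at its C-terminal end. Mixed-stage embryos of both sexes were taken 2 h after synchronization by egg bleaching, as 1 group of 2 biological replicates. Whole embryos were used, so the cell types behind a peak are unknown, and no other tagged protein or untagged strain was analysed here. Binding of M03D4.4 and chromatin that is pulled down whatever the tagged protein cannot be told apart from these lists. The line expresses the fusion stably, and the promoter driving it is not stated in the labels.

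The 14-3-3 proteins bind partner proteins at phosphorylated serine or threonine residues and set where those partners sit in the cell. In the worm, PAR-5 is needed for the polarity of the zygote along its anterior-posterior axis, where it acts with the kinase PAR-1. FTT-2 and PAR-5 also bind the forkhead factor DAF-16, the main target of insulin signalling, and FTT-2 is known to hold it in the cytoplasm.

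Each peak carries a deposited signal but no count of reads, and depth is therefore unknown. Nothing beyond the words biological replicate says that the samples came from separate cultures. The list kept by the irreproducible discovery rate (IDR), a measure of agreement in rank between replicates, holds 1423 nuclear peaks in 1416 intervals. For each replicate and for the pooled reads there is also a relaxed list of about the 30000 strongest peaks, background included. The 1423 IDR peaks are exactly the 1423 strongest nuclear peaks of the pooled list (1423 of 1423 with the same summit and signal), so an IDR signal here is the pooled signal. All coordinates are 1-based on ce11.

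The gene ftt-2 (WBGene00001502) lies on the minus strand of chromosome X, from 11603708 to 11605419. Its strong interval spans 11605592 to 11606439 and holds a pair of summits. The sequence around both is shown first because the interval contains a repeat. Below are the 300 bases of chrX:11605891-11606190 from the RefSeq copy of the WBcel235 assembly, which is ce11, written 5′ to 3′ on the ftt-2 strand. The summit farther from the gene lies at base 49 and the nearer one at base 252, counted from 1 at the 5′ end. Capitals mark the words of at least 11 bases that occur more than once within the interval.
ftt-2 summits: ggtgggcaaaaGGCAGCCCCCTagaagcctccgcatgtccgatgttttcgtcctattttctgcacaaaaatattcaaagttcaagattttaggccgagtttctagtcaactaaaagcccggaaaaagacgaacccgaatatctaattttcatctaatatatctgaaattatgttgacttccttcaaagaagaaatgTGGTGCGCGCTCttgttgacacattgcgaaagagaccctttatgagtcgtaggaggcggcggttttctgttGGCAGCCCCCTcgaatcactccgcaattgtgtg
An 11-base word stands near each pooled summit, its middle 32 bp from the far summit in the first copy and 21 bp from the near summit in the second. The first copy lies on the side of its summit away from the gene and the second on the side toward the gene. The distances differ between replicates, whose far summits were at 11606136 and 11606172 and near summits at 11605925 and 11605968. The 11-base word occurs 2 times in the nuclear genome on either strand, both times here. A 12-base word of the interval, present 14 times in the nuclear genome, has its first copy in this stretch and its second outside it, 256 bp closer to the gene. The copies of the 11-base word also lie 256 bp apart.

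The copies with their flanks are set side by side below, with capitals marking the bases that are the same at a distance of 256 bp. The first copy of the 11-base word is at chrX:11606144-11606204 and the second at chrX:11605888-11605948, with 30 of 61 bases the same.
far copy: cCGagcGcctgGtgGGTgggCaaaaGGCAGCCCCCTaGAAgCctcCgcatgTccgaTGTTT
near copy: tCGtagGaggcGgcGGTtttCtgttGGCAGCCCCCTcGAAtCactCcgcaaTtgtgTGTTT
The 12-base word and its flanks are at chrX:11605958-11606019 and chrX:11605702-11605763, with 34 of 62 bases the same.
first copy: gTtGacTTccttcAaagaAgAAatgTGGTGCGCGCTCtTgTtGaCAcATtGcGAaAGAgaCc
second copy: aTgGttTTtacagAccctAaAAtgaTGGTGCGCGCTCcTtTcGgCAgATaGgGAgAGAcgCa
Over the whole interval, 36.8% of 592 bases equalled the base 256 bp further on. At the 324 other distances from 100 to 424 bp the share ran from 18.6 to 32.2%, with a median of 25.2%. The repeat was noticed after the sequence had been read. The share at 256 bp includes the 11-base and 12-base words that pointed to this distance, so its excess over the other distances carries no test. Exact repeats of this kind are common: 373 of 1416 windows of 848 bp centred on IDR intervals (26.3%) held one of 11 or more bases at such a distance. All 813 words of 36 bases in the interval occur once in the assembly, so reads of that length would have a single place to map. The sources used here do not give the read length.

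For 5 short words, searched on both strands, 0 matches were found in the 300 bases of ftt-2. This stretch is centred between the summits, at bases 49 and 252, and ends soon past each. The windows of other peaks below are each centred on a summit, so the 0 is not from a like window. The word TGATAA is bound by GATA factors and the word GTAAACA by DAF-16, and the other words have no factor named here. In windows of 300 bp around all IDR summits, TGATAA occurred in 13.3% and GTAAACA in 4.36%, against 30.7% and 5.01% of the 300 bp upstream of all protein-coding genes. CTGCGTC occurred in 15.3%, GAGAGAG in 24.7% and TTTCGCG in 6.75% of summit windows, against 4.52%, 6.97% and 3.99% of promoters. The G and C share of the ftt-2 stretch was 44.7%. The median was 44.7% for IDR windows, placed differently as said above, and 33.3% for promoters.

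The near summit of ftt-2, at position 11605939, lay 520 bp upstream of the 5' end with a pooled signal of 1210. Replicate 1 gave it 629 and replicate 2 gave it 580. It ranked 11 among all 1423 nuclear IDR peaks and 2 among the 351 on chromosome X. In the relaxed lists of the replicates it ranked 13 and 12. Both replicates thus placed this summit within 2 ranks of its pooled place. The peak next above it in rank, at rpl-3, had a pooled signal of 1317 and was above ftt-2 in both replicates, at 711 and 604. The peak next below had 1198, with 630 and 568 in the replicates, so replicate 1 put it above ftt-2 and replicate 2 below. The order of ftt-2 and this lower neighbour is therefore not held by both replicates.

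The far summit, at position 11606142 and 723 bp upstream, reached 763 in the pooled list, 415 in replicate 1 and 320 in replicate 2. It ranked 52 in the IDR list, and 51 and 79 in the replicates. It was the weaker summit of the pair in both replicates. The ratio of far to near signal was 0.659 in replicate 1 and 0.552 in replicate 2, or 0.605 ± 0.076 (SD, n = 2), and 0.630 in the pooled list. The spacing was 211 bp and 204 bp in the replicates and 203 bp in the pooled list. No neighbouring nuclear summits were closer than 199 bp in any of the 4 lists, so the spacing lies close to the smallest that the lists hold. The smallest spacing was 199 bp in each of the 4 lists, the relaxed lists with background peaks included. What sets this lower bound, a limit in the peak calling or the spacing of bound sites, was not tested.

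**Figure D1:**
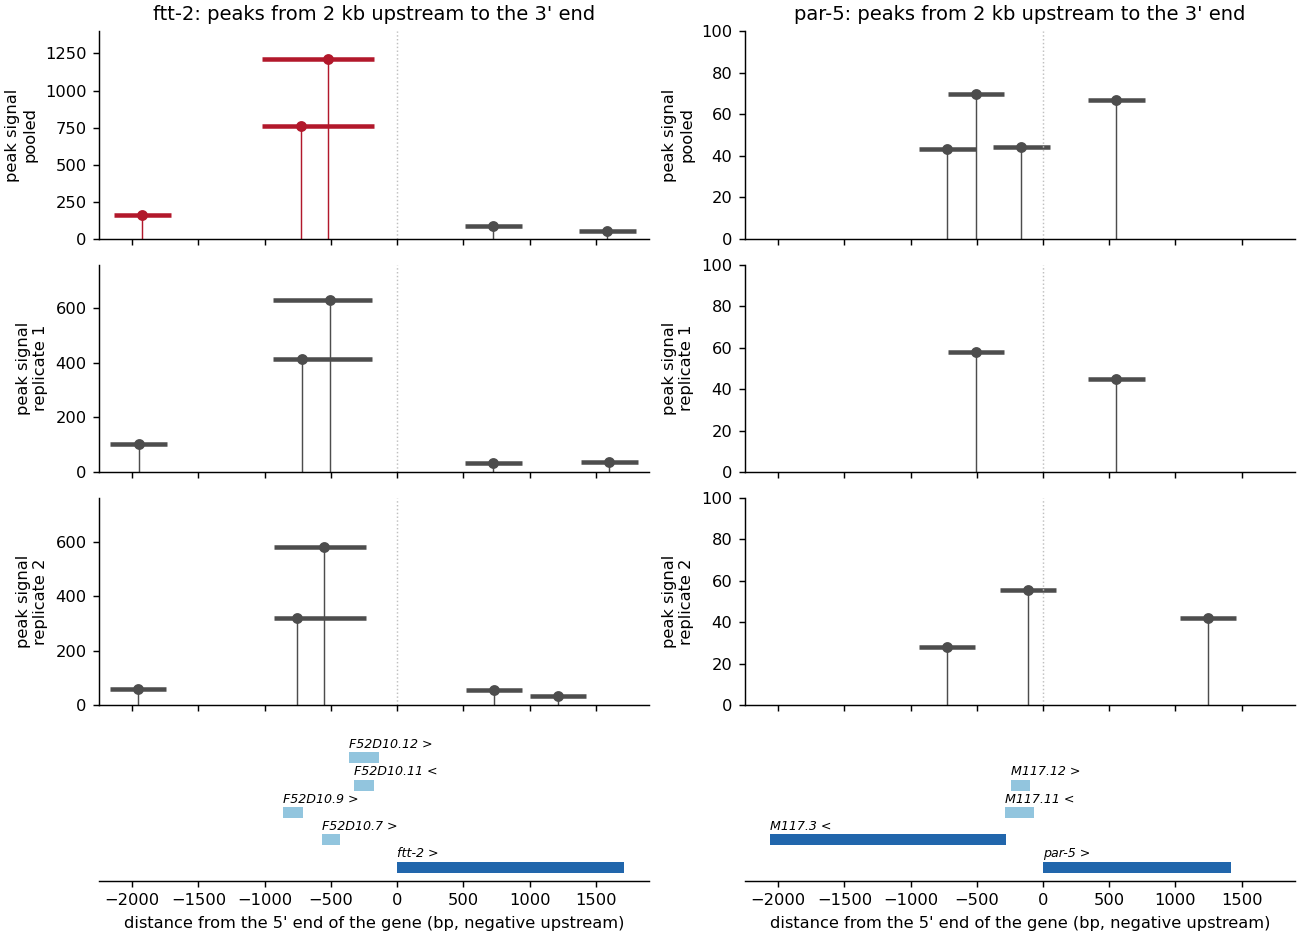
Peaks of ftt-2 (left) and par-5 (right) in the pooled list and in each replicate, by distance from the 5' end of the gene in bp (negative upstream). Dots are summits, bars are peak intervals and red marks IDR peaks; the height is the deposited signal, on a separate scale for each gene, and the blue bars below are annotated genes with the arrow in the direction of transcription. The pair of ftt-2 summits reaches 1210 and 763 in the pooled list and recurs in both replicates, and par-5 has no peak above 70.0.

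The third IDR peak of ftt-2 is distal and weak. Its summit, at position 11607345, lay 1926 bp upstream, at 161 in the pooled list, 102 in replicate 1 and 60.1 in replicate 2. It ranked 1144 of 1423 in the IDR list, and 878 and 2499 in the replicates. The lowest IDR signal was 147, so this peak is close to the end of the list.

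Within ftt-2 itself there were relaxed peaks only. A summit in an intron, 726 bp downstream of the 5' end, had 85.7 in the pooled list, 32.5 in replicate 1 and 57.8 in replicate 2. A summit in the 3' UTR had 50.5 in the pooled list and 35.6 in replicate 1, and replicate 2 had one at 35.2 in a coding exon instead. The gene thus had 5 relaxed peaks in each of the 3 lists, 3 of which matched IDR peaks. With 3 IDR summits in its window, ftt-2 is among 20 of 19973 protein-coding genes (0.1%) with at least that many, but it was picked for the interval that holds the pair. An IDR summit lay in the same window of 1540 genes (7.71%).

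The replicates agreed on the strength of the near summit more closely than on that of the distal one. The log2 ratio of replicate 2 to replicate 1 was -0.12 at the near summit, -0.38 at the far summit and -0.77 at the distal one. Over the 1418 IDR peaks matched in both replicates its median was -0.19, with an SD of 0.46 and 10th and 90th percentiles of -0.71 and 0.36. The near and far summits are therefore within 1 SD of the median, and the distal summit lies below the 10th percentile. Summit positions moved from replicate 1 to replicate 2 by 43 bp at the near summit and 36 bp at the far one, both toward higher coordinates, away from the gene. The median absolute shift was 22 bp, and 28.7% of matched peaks moved by at least 43 bp.

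**Figure D2:**
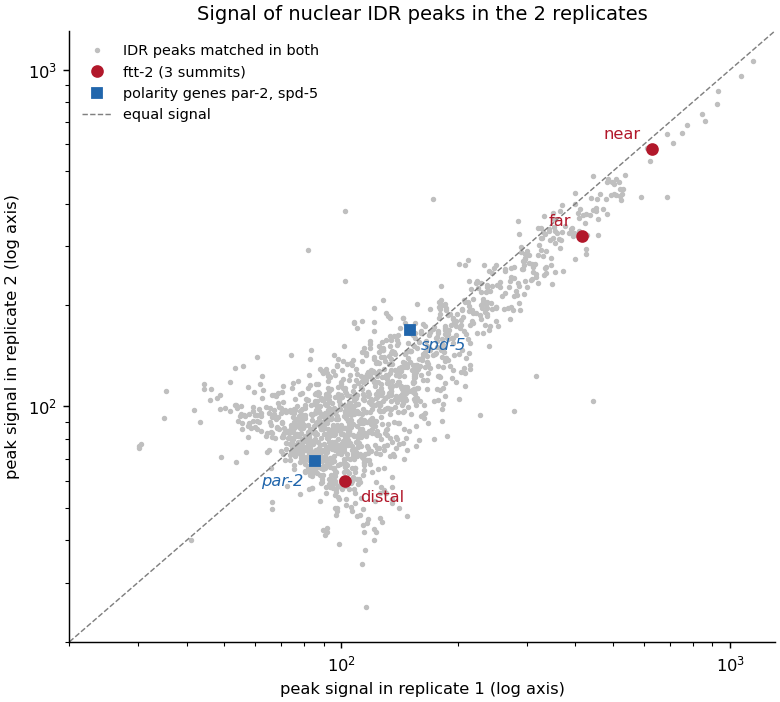
Signal of nuclear IDR peaks in replicate 1 (x axis) and replicate 2 (y axis), both on log axes, with the dashed line at equal signal. Red dots are the near (629 and 580), far (415 and 320) and distal (102 and 60.1) summits of ftt-2, and blue squares are the polarity genes par-2 and spd-5.

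The interval with the pair of ftt-2 summits was wide. Of the 1416 IDR intervals, 1104 (78.0%) were 430 bp wide, 301 were narrower and 11 wider. The ftt-2 interval, at 848 bp, was the widest in the IDR list, and the next was 712 bp. It was 750 bp wide in replicate 1 and 697 bp in replicate 2, also the widest nuclear interval of each replicate. The same coordinates were listed with 2 summits for 7 IDR intervals (0.494%), ftt-2 among them. A further 20 pairs of neighbouring IDR summits had different interval coordinates, but each summit lay inside the interval of the other. Over all 27 pairs the spacing ran from 199 to 212 bp, and 203 bp was not particular to ftt-2. The rule that each summit lie inside the interval of the other limits the spacing from above. No list held a spacing under 199 bp, so this narrow range is partly set by how the pairs were chosen. The ratio of the weaker to the stronger summit ran from 0.110 to 0.976 with a median of 0.638, and 14 of the 27 pairs had a higher ratio than the 0.630 of ftt-2. Of the 7 intervals listed with 2 summits, 1 had a stronger main summit than ftt-2, with a signal of 1721.

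**Figure D3:**
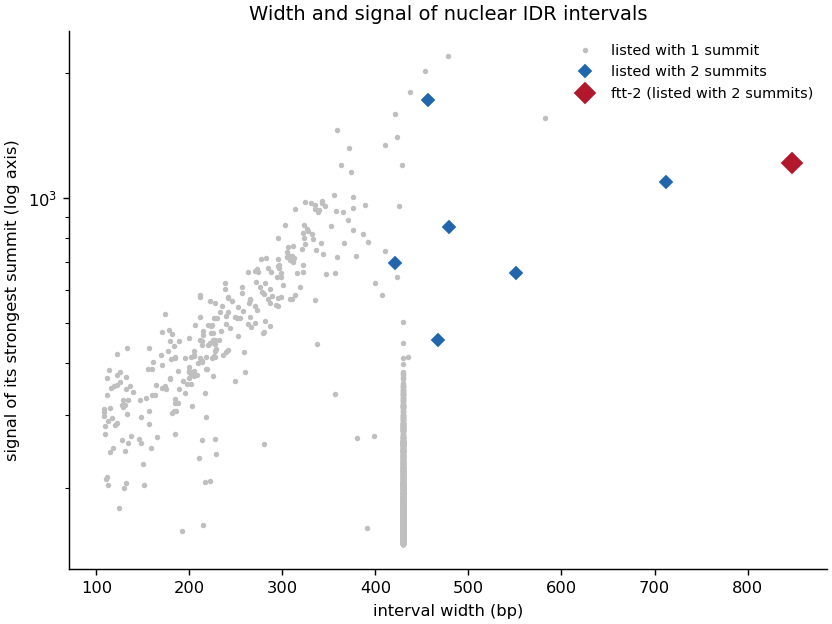
Width in bp (x axis) and signal of the strongest summit on a log axis (y axis) of the 1416 nuclear IDR intervals. Grey points are intervals whose coordinates are listed with 1 summit, diamonds those listed with 2, and the red diamond is ftt-2, the widest at 848 bp with a signal of 1210.

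Both summits of the pair lay inside short annotated RNA genes of the ftt-2 promoter. The near summit fell in F52D10.7 (11605853 to 11605989, minus strand) and the far summit in F52D10.9 (11606129 to 11606277, minus strand), each of the class ncRNA. The replicate summits fell in the same genes. The ncRNA genes F52D10.11 and F52D10.12 overlap the interval closer to ftt-2 and hold no summit. No tRNA, rRNA, snRNA, snoRNA or microRNA gene lay within 500 bp of the near summit, and no other protein-coding gene lay within 5000 bp of ftt-2. Of all IDR summits, 252 of 1423 (17.7%) fell in an ncRNA gene, against 3.62% of pooled relaxed summits and 1.09% of the genome. Against 710 IDR summits in promoter windows, whose median was 207 bp upstream of the nearest 5' end, 18.2% lay farther upstream than the near summit of ftt-2 and 8.73% farther than the far one.

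The gene par-5 (WBGene00003920) lies on the minus strand of chromosome IV, from 11820506 to 11821924. Its window held 0 IDR peaks. The nearest IDR summit, at position 11857395 with a signal of 238, lay 35471 bp upstream. Relaxed peaks were present, as in 56.1% of protein-coding genes. The pooled list held 4, with signals of 70.0, 67.1, 44.0 and 43.2, all under the lowest IDR signal of 147. The strongest relaxed peak of ftt-2 was 17.3 times that of par-5 in the pooled list, 10.9 times in replicate 1 and 10.5 times in replicate 2. These are ratios of deposited signals within a list, whose scaling is not given. The par-5 peak used was not the same in the replicates, at 506 bp upstream in replicate 1 and 113 bp in replicate 2. The ftt-2 peak is the one for which that gene was picked. Among 9669 genes that also had a relaxed but no IDR peak in this window, 51.9% had a stronger one than par-5.

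Upstream of par-5 lies the oppositely transcribed gene M117.3 (11822206 to 11823989, plus strand). The span between them, chrIV:11821925-11822205, is printed because the strongest par-5 summit of replicate 2 falls in it. It is given 5′ to 3′ on the par-5 strand, with the GAGAGAG word, read here as its complement, in capitals.
par-5 upstream: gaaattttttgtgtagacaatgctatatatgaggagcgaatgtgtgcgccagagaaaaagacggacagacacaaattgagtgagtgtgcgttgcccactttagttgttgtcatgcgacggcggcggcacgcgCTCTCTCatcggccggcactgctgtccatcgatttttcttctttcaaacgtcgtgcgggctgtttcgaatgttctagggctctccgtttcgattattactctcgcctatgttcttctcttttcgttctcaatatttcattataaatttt
The other 4 words do not occur in these 281 bases, of which 45.2% are G or C. The ncRNA genes M117.11 and M117.12 overlap this span. The pooled list had a summit here 164 bp upstream with a signal of 44.0, replicate 2 had one 113 bp upstream with 55.4, and replicate 1 had none.

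The replicates placed the relaxed peaks of par-5 differently. The strongest pooled summit, in an intron of M117.3 and 506 bp upstream of par-5, had 57.8 in replicate 1 and no peak in replicate 2 that overlapped it by 50% or more of either peak. The summit in a coding exon of par-5 had 67.1 in the pooled list and 45.0 in replicate 1, and none in replicate 2. This pooled summit lay 554 bp downstream of the 5' end of the gene. Because par-5 has 5 annotated transcripts, it was also only 48 bp downstream of the nearest transcript 5' end. Replicate 2 in turn had a summit in the 3' UTR with 41.9. A summit in M117.3, 724 bp upstream, had 43.2 in the pooled list and 28.3 in replicate 2 only. None of the 4 pooled peaks therefore had a summit within 100 bp in both replicates, unlike the summits of the ftt-2 pair. The par-5 peaks ranked from 10451 to 27873 of 29980 in the pooled list, against 11 and 52 for that pair. The share of all pooled peaks of like signal with a summit in both replicates was not counted, so this is no trait of par-5.

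**Figure D4:**
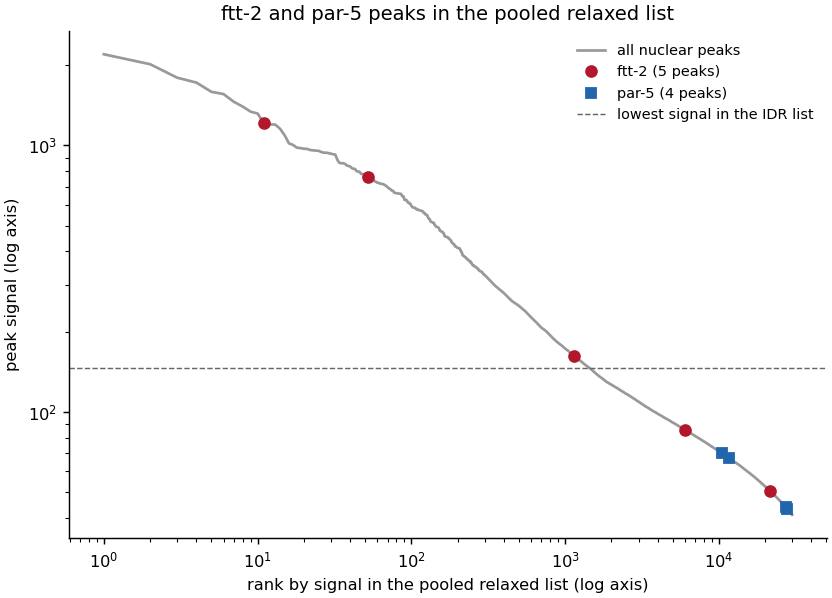
Signal (log y axis) against rank (log x axis) in the pooled relaxed list, with all nuclear peaks as the grey line. Red dots are the 5 peaks of ftt-2, blue squares the 4 peaks of par-5, and the dashed line is the lowest IDR signal of 147. The ftt-2 pair is at ranks 11 and 52, and every par-5 peak lies below the line.

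The coding sequences of ftt-2 and par-5 were aligned with each other. Each has 248 codons in 4 coding exons, and 590 of 741 aligned coding bases are the same (79.6%). The longest run of identical bases between the coding sequences was 19, and between the ftt-2 interval and the whole par-5 window 12. The 955 words of 36 bases under the upstream peaks of par-5 also occur once each in the assembly.

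Genes of insulin signalling and embryo polarity, processes in which 14-3-3 proteins take part, were counted in a shorter promoter window. They were listed by process and not by a shown link to a 14-3-3 protein. The list of insulin signalling had 15 genes and that of embryo polarity 20. The promoter window ran from 1000 bp before the 5' end to 500 bp after it, and 4.69% of protein-coding genes had an IDR summit there. Of the insulin signalling genes 0 of 15 had one (95% exact Clopper-Pearson interval 0 to 21.8%), where the background share would give 0.703. Of the polarity genes 2 of 20 had one (10%, 1.23 to 31.7%), where it would give 0.937. Both counts are near the background, and the intervals cover counting error only.

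The polarity genes with a summit were spd-5 and par-2. The gene spd-5, which encodes a scaffold protein of the centrosome, had 316 in the pooled list (150.2 and 169 in the replicates) in an intron 202 bp downstream of its 5' end. The gene par-2, whose product marks the posterior cortex, had 148 (85.8 and 68.8), at rank 1404, in a summit 659 bp upstream that falls in the 5' UTR of rab-18 and is nearest to that gene. In the wider window used for ftt-2, 4 of 15 insulin signalling genes (26.7%) and 5 of 20 polarity genes (25%) had an IDR summit, against 7.71%. This window includes the gene body and so differs in length between genes.

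In the wider window, daf-16 had summits of 162 and 151 in an intron, 19539 and 18646 bp downstream of its 5' end. Summits upstream of pdk-1 (191), which encodes an activating kinase of AKT, of pptr-1 (153), a phosphatase subunit gene, and of smk-1 (160), a gene needed with daf-16 for longevity, lay 1353 to 1487 bp away. The other polarity genes were par-1 (171) and cgef-1 (171), in introns, and mel-11 (147), the myosin phosphatase subunit gene, 1695 bp upstream. All of these were under the pooled signal of the far summit of ftt-2, but ftt-2 was picked for its strong peak. The summits named in this paragraph were weak calls, at ranks from 815 (pdk-1) to 1408 (mel-11) of 1423 in the IDR list. Replicates 1 and 2 differed most at smk-1, with 114 and 44.4, and least at cgef-1, with 85.3 and 83.7. Of these summits, only the weaker one of daf-16 was higher in replicate 2, at 65.4 and 74.5.

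Promoter peaks most like the near summit of ftt-2 were sought over the 1418 matched IDR peaks, from 3 standardized measures (log2 signal in each replicate and log2 width). The closest were W01D2.3 at a distance of 2.11 SD units, T02E1.2 at 2.28, sre-23 at 2.39 and T13C5.6 at 2.59. The peak of W01D2.3 was the only one of these 4 whose interval is listed with 2 summits, had a width of 551 bp and a signal of 659 (341 and 332 in the replicates). T13C5.6 had 961 (519 and 442) at a width of 389 bp. The summits assigned to T02E1.2 (1399) and to sre-23 (1795), a chemoreceptor family gene, each had a small RNA gene within 500 bp. These measures are among those for which ftt-2 was picked.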

How the data were processed

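Peaks were analysed for 1 group of 2 biological replicates, numbered as the labels number them. Peak signal is a value the authors deposited, with its scaling not stated. The deposited −log10 q-value was used only to break ties in rank. The summit offset is a deposited distance from the peak start. Per the deposited file lists, relaxed lists were called with a control per replicate and on pooled reads, and the IDR list derives from them. Aligner, peak caller and IDR threshold: not given in the sources used here. Lists on ce10 were not used, as no ce10 annotation was at hand. 

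Genes came from Ensembl release 115 (WBcel235), and no peak lay past a chromosome end. Mitochondrial peaks were left out. Peaks of 2 lists were matched at an overlap of 50% of either peak, then by nearest summit. A gene had a promoter peak with a summit from 1000 bp upstream to 500 bp downstream. The members and lists were chosen with earlier results of these data known. Named were both members, genes within 5000 bp, list genes with a promoter IDR summit and the 4 likest promoter peaks. List genes named for the wider window were chosen after their values were seen. No test was run, since there is 1 group. Counting in windows, ranking by signal and peak matching were tested on simulated peaks. The sequence repeat was searched after the sequence was seen. Tools were Biopython 1.88 for alignment, Matplotlib 3.10.9, SciPy 1.17.1 for intervals, and NumPy 2.4.6 and pandas 2.3.3 under Python 3.11.15.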

Additional observations from a re-analysis of the deposited data

How the results depend on the processing

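Among the alternatives run, the ftt-2 count of 3 IDR peaks became 2 among the 711 strongest IDR peaks, without replicate 1 or with 1000 bp upstream, each time losing the distal summit, and stayed 3 otherwise. The par-5 count was 0 in every alternative run. The pooled list cut to the same number of peaks is the IDR list itself, and the 711 strongest peaks are part of it. Neither of these, nor a shorter upstream reach, could raise any count given here. The rank of the strongest ftt-2 peak was 0.773% down the IDR list, 0.0367% down the longer pooled list, and 0.0400 to 0.0434% down a single replicate's list, since the lists differ in length. For par-5 it was 34.9% down the pooled list and 10.7 to 13.0% in single replicates. Without replicate 1 the strongest par-5 summit lay at -113 bp, and without replicate 2 at -506 bp, as in the pooled list. The distance of ftt-2 ran from -549 to -506 bp. The insulin signalling count went from 0 to 4 in the wider window and was 0 in the other alternatives. The polarity count of 2 was 1 among the 711 strongest peaks, 1 without replicate 1 and 2 without replicate 2, 1 with 500 bp upstream and 5 in the wider window. No replicate difference is given for par-5 under the 50% overlap. With an overlap of 1 bp it was -1.03 on the log2 scale, between summits at 11822430 and 11822650. No paired analysis was possible because there is 1 group. With 2 replicates and no read counts, an absent par-5 peak shows only that none was called at this unknown depth.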

Other observations

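Within 1000 bp around the windows of both genes there were further relaxed peaks. One outside the par-5 window was stronger than any inside it. Its summit lay 417 bp past the 3' end of par-5, between genes, with a signal of 99.7 in the pooled list and 74.7 in replicate 1. Replicate 2 had a summit 562 bp past the 3' end, with 34.1. A further summit, 214 bp beyond the upstream edge of the window, had 74.2 in the pooled list, 38.5 in replicate 1 and, 3 bp away, 32.5 in replicate 2. Around ftt-2 the strongest pooled peak outside the window lay 130 bp beyond its upstream edge, with 94.0 in the pooled list and, 150 bp beyond it, 41.3 in replicate 1.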
